A study of Mus musculus with 4 samples.

Results

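The SOX genes encode transcription factors that share an HMG box, the domain that binds and bends DNA, and 10 of them were followed from naive to epiblast-like mouse embryonic stem cells: Sox1, Sox2, Sox3, Sox4, Sox11, Sox12, Sox13, Sox15, Sox17 and Sox21. They were taken by gene ID from a comparison table of 20296 genes, and all 10 had an adjusted p there. RNA came from 4 mouse samples, 2 per state. Naive cells (nESC) of the lines R1 and E14TG2a (E14) were grown in 2i/LIF, in which a pair of kinase inhibitors and the cytokine LIF keep the cells naive. Epiblast-like cells (EpiLSC) of the same lines were collected on day 3 in N2B27 medium with activin A at 20 ng/ml and bFGF at 12 ng/ml, without 2i/LIF. The states therefore differ in medium as well as in identity, and these cannot be told apart.

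SOX proteins rarely act alone. In embryonic stem cells SOX2 binds DNA next to the POU factor encoded by Pou5f1 at joint OCT-SOX elements, and the pair is part of the core network of pluripotency. Groups are set by the sequence of the box: group B1 (Sox1, Sox2, Sox3) activates genes in pluripotent and neural progenitor cells, Sox21 of group B2 mostly represses, group C (Sox4, Sox11, Sox12) is found in many embryonic progenitors, and Sox13, Sox17 and Sox15 belong to groups D, F and G.

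The stretch that encodes this domain is shown for the 5 members that were called, so that their likeness in sequence can be set beside their direction. It is the in-frame window of 79 codons of Sox2 that was most alike over the 10 members, read from the transcripts of GENCODE M21 (build GRCm38; the submitters' processing notes name mm9, so these positions are not those of the deposited table). Sox2 runs over codons 41 to 119 at chr3:34650536-34650772 on the plus strand, Sox3 over chrX:60892771-60893007, Sox21 over chr14:118235384-118235620, Sox4 over chr13:28952617-28952853 and Sox11 over chr12:27342034-27342270, these all on the minus strand and each within 1 coding exon. Sequences are given 5′ to 3′ in the coding sense, and capitals mark bases that differ from Sox2 at the same place.
Sox2: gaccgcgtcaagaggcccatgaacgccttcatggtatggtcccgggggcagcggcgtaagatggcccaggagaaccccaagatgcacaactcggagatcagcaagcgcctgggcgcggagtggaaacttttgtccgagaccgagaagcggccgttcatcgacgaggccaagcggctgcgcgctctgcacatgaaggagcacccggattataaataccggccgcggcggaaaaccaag
Sox3: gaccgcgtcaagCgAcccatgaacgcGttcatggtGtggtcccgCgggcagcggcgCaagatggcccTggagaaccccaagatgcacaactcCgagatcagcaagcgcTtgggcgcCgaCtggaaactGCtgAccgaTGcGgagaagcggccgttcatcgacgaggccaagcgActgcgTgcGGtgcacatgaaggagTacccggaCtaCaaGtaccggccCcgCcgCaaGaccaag
Sox21: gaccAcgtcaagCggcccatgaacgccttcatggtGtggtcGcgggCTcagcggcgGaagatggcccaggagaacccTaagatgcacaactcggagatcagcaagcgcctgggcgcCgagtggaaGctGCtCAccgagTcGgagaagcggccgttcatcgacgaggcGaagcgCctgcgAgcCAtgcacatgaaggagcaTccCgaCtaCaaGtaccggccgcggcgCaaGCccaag
Sox4: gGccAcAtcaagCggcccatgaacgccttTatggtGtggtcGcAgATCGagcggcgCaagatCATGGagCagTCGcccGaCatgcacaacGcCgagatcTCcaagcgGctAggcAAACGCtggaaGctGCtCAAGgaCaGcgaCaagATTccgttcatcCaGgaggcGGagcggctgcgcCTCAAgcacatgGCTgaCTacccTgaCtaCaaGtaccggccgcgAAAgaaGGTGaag
Sox11: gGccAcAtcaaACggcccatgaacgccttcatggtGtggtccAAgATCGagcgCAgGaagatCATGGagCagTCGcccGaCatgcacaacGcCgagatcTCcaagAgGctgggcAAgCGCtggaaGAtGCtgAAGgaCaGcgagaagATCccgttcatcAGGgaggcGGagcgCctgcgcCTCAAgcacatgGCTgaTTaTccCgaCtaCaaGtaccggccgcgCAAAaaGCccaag

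Sox3 and Sox21 each differed from Sox2 at 29 of 237 bases of this stretch, Sox11 at 76 and Sox4 at 74. Sox4 and Sox11 were equal to each other at 89.5% of these bases. Likeness to Sox2 was not particular to called members: Sox1, which was not called, equalled Sox2 at 89.5% of bases, above Sox3 and Sox21 (87.8% each). Sox15 (73.0%) and Sox17 (68.4%), also not called, were nearer to Sox2 than Sox11 (67.9%), and Sox4 stood at 68.8%. Sox12, not called, equalled Sox4 at 85.2%. The longest run of identical bases between whole transcripts was 48 for Sox4 and Sox11 and 45 for Sox1 and Sox3. It was 38 for Sox2 and Sox21, 38 for Sox1 and Sox2 and 32 for Sox2 and Sox3. A read that lies inside such a run cannot be assigned to 1 of the pair. Read length is not stated in the labels.

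The values came from 1 table made from all 4 samples, so values of single samples, the overlap of the groups and differences between R1 and E14 were not analysed here. The 2 samples of a state are of different lines, with 1 sample per line and state, so p-values measure the spread between these samples and not between repeat cultures of a line. The header does not state the direction. A positive value was read as a higher level in EpiLSC because Fgf5 (8.40), Otx2 (3.90) and Dnmt3b (4.63) were positive and Zfp42 (-6.22), Klf4 (-6.29) and Esrrb (-8.54) negative as log2 fold changes in the authors' deposited table. All 8 naive markers fell and 5 of 6 epiblast-like markers rose, while T, a marker of the primitive streak, was at 0.02 (adjusted p 0.997) in the authors' deposited table. These markers include the genes used to set the direction, whose own direction was fixed by that choice. Apart from those, Tfcp2l1, Nr5a2, Tbx3, Prdm14 and Dppa3 fell, and Pou3f1 and Fgf8 rose. Depth per sample is unknown, and the mean normalized counts summed to 27888553. In bulk RNA, fewer cells that express a gene and less RNA per cell cannot be told apart.

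Levels per state are implied values: they split each gene's deposited mean by its fold change with equal weight for both states and carry no SD. Where levels of different SOX genes are set side by side they are per kilobase (kb) of exon in GENCODE M21, unless stated otherwise. Levels of the genes in the lists, and their sums, are normalized counts not divided by length. A gene was said to rise or fall when its adjusted p was under 0.05 (DESeq2 Wald test, Benjamini-Hochberg).

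By this rule Sox3, Sox4 and Sox11 rose, Sox2 and Sox21 fell, and Sox1, Sox12, Sox13, Sox15 and Sox17 did not pass. The 3 rises among 10 members stand beside 7.67% of all 16361 tested genes that rose, and the 2 falls beside 6.23% that fell. In either direction 5 of 10 members were called, against 13.9% of tested genes. No test was made of this share, since the members were picked with results of these data known. The median log2 fold change of the members was 0.30, against 0.02 over all tested genes.

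**Figure D1:**
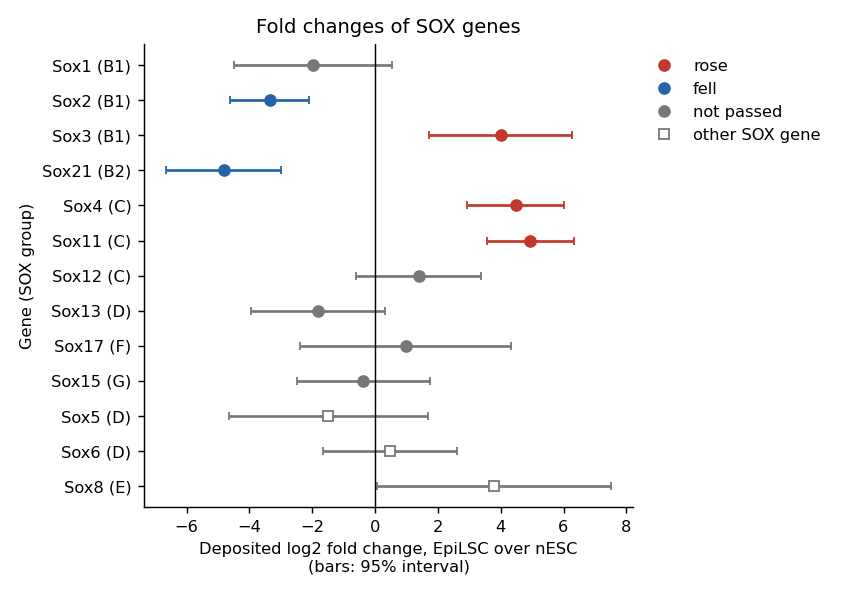
Deposited log2 fold change of EpiLSC over nESC (x axis) for each SOX gene with an adjusted p (y axis, SOX group in brackets), with the 95% interval as a bar. Filled circles are the 10 members and open squares the other SOX genes, and colour gives the call. The intervals of Sox2 and Sox21 lie below 0 and those of Sox3, Sox4 and Sox11 above 0, as does that of Sox8 (0.07 to 7.50), which was not called.

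Group B1 split. Sox2 (ENSMUSG00000074637.7), needed for the pluripotent state, had a mean normalized count of 5034 in the authors' deposited table, higher than 92.8% of tested genes. Its implied level was 9169 normalized counts in nESC and 899 in EpiLSC. It fell by 3.35 on the log2 scale (SE 0.64 and adjusted p 6.37e-06 in the authors' deposited table), that is 10.2-fold with a 95% interval from 4.25 to 24.5. Per kb, Sox2 stood at 4457 normalized counts in nESC and still at 437 in EpiLSC.

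Sox3 (ENSMUSG00000045179.9), an X-linked B1 factor of the later epiblast and the neural plate, went the other way. From a mean of 51.8 normalized counts in the authors' deposited table, its implied level was 6.10 in nESC and 97.5 in EpiLSC. The rise was 4.0 on the log2 scale (SE 1.16 and adjusted p 0.00609 in the authors' deposited table), 16.0-fold with a 95% interval from 3.32 to 76.9. Tested against a 2-fold change instead of no change, the call of Sox3 ended (adjusted p 0.114, range 0.00556 to 0.114 over its alternatives), and with a mean below 100 it was not among the more abundant genes tested alone. In EpiLSC the implied level of Sox3 was 47.2 per kb against 437 per kb for Sox2.

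Sox1, the B1 factor that marks early neural ectoderm, had a mean of only 13.8 normalized counts in the authors' deposited table. The implied levels were 22.0 in nESC and 5.58 in EpiLSC. Its value of -1.98 (SE 1.29 and adjusted p 0.431 in the authors' deposited table) did not pass, and the 95% interval from -4.50 to 0.54 holds both a large fall and a small rise. The B1 genes together had an implied level of 4465 per kb in nESC and 485 per kb in EpiLSC, of which Sox2 was the main part in both.

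Sox21 (ENSMUSG00000061517.8), the group B2 factor that counteracts B1 proteins at shared sites in neural progenitors, fell. It had a mean of 77.3 normalized counts in the authors' deposited table and an implied level of 149 in nESC and of 5.29 in EpiLSC. The fall was -4.82 on the log2 scale (SE 0.93 and adjusted p 7.85e-06 in the authors' deposited table), 28.2-fold with a 95% interval from 7.92 to 100.4. The 2 members that fell thus held ranks 233 (Sox2) and 243 (Sox21) from the lowest Wald score among the 16361 tested genes. An exon of the noncoding gene Gm4675 shares 713 bases with Sox21 on the opposite strand in GENCODE M21. Gm4675 had a mean of 3.44 and a value of -5.15 (SE 2.84) in the authors' deposited table, with no adjusted p. The libraries were strand-specific per the labels, but the strand setting of the counting is not stated there.

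**Figure D2:**
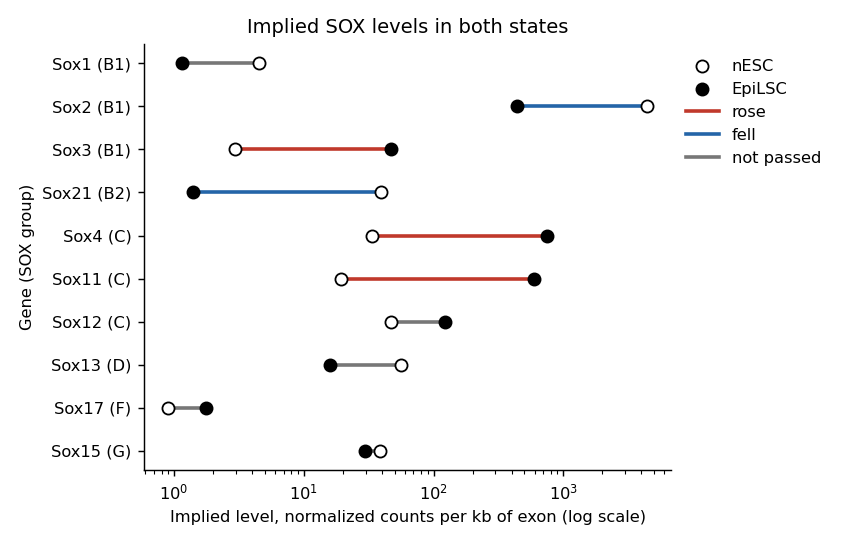
Implied level per kb of exon (x axis, log scale) of the 10 members (y axis, SOX group in brackets) in nESC (open circles) and EpiLSC (filled circles), joined by a line coloured by the call. Sox2 drops from 4457 to 437, while Sox4 and Sox11 climb from 33.6 and 19.2 to 750 and 592.

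In group C Sox4 and Sox11 rose. Sox11 (ENSMUSG00000063632.6), which acts in neural and mesenchymal progenitors, had a mean of 2541 in the authors' deposited table and an implied level of 160 normalized counts in nESC and of 4922 in EpiLSC. It rose by 4.95 on the log2 scale (SE 0.71 and adjusted p 3.98e-10 in the authors' deposited table), 30.8-fold with a 95% interval from 11.7 to 81.2. By Wald score it was 73rd from the top of all tested genes, the highest place of the 10 members.

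Sox4 (ENSMUSG00000076431.4), a regulator of progenitor survival and of epithelial to mesenchymal change, had a mean of 1879 in the authors' deposited table. Its implied levels were 161 in nESC and 3597 in EpiLSC. The rise was 4.48 on the log2 scale (SE 0.79 and adjusted p 5.48e-07 in the authors' deposited table), 22.3-fold with a 95% interval from 7.65 to 65.1, at rank 202 from the top by Wald score. The noncoding gene Gm26735 shares 2616 exonic bases with Sox4 on the opposite strand, and had a mean of 19.8 and a value of 3.76 (SE 1.53 and adjusted p 0.0879 in the authors' deposited table).

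Sox12, the weakest activator of group C, did not pass. It had a mean of 378 in the authors' deposited table, and its implied levels were 209 (nESC) and 548 (EpiLSC). Its value was 1.39 (SE 1.01 and adjusted p 0.522 in the authors' deposited table), with a 95% interval from -0.59 to 3.38 that overlaps the interval of Sox4 (2.94 to 6.02) and ends below that of Sox11 (3.55 to 6.34). The difference between these genes was not tested. In nESC Sox12 was the group C gene with the highest implied level per kb (46.9, against 33.6 for Sox4 and 19.2 for Sox11), and in EpiLSC that with the lowest (123, against 750 and 592).

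As Sox4 and Sox11 rose together, their promoters are shown, from 250 bases before to 50 bases after the start in RefSeq (build GRCm38.p6, 5′ to 3′ on the gene's strand). Sox4 lies at chr13:28953650-28953949 and Sox11 at chr12:27342669-27342968, both on the minus strand. Capitals mark the letters CCAAT on either strand.
Sox4: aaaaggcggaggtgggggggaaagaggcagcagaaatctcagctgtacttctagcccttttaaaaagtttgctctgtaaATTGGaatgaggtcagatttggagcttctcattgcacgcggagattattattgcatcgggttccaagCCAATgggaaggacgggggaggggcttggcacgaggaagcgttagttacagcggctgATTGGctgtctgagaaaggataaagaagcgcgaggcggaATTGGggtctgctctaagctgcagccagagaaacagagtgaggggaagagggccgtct
Sox11: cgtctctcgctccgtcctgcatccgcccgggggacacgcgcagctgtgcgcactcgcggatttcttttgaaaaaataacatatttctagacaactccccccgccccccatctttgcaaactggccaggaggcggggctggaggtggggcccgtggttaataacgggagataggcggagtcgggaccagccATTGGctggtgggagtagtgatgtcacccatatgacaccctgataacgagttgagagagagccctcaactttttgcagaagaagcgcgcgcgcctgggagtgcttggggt

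CCAAT, the core of the site of the factor NF-Y, was found 4 times in the window of Sox4 and 1 time in that of Sox11. Of the 32851 RefSeq promoter windows 37.4% held it, and of the 8 members with a window 5 did. The SOX-type letters ACAATG and ACAAAG, searched on both strands, were in neither of the windows shown. ACAATG was found in 12.6% and ACAAAG in 18.7% of all windows, and among the members ACAAAG stood in those of Sox2 and Sox15 and ACAATG in none of 8. The octamer ATGCAAAT, bound by POU factors and searched on both strands, was in 1.74% of all windows and, among the members, in those of Sox1 and Sox12. These matches are descriptions of letters and not sites of binding.

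The members of the other groups did not pass. Sox13, a group D factor with a leucine zipper, had a mean of 155 in the authors' deposited table and an implied level of 242 in nESC and of 68.3 in EpiLSC. Its value was -1.83 (SE 1.09 and adjusted p 0.358 in the authors' deposited table), with a 95% interval from -3.96 to 0.31. Sox15, a group G factor present in embryonic stem cells that can also pair with the Pou5f1 protein, had the value nearest to 0 of the 10 members, -0.37 (SE 1.08 and adjusted p 0.967 in the authors' deposited table). Implied levels of Sox15 were 33.1 in nESC and 25.6 in EpiLSC, and its 95% interval ran from -2.48 to 1.74. The coding gene Mpdu1 shares 31 exonic bases with Sox15 on the opposite strand and had a mean of 726 in the authors' deposited table.

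Sox17, the endoderm regulator of group F, had the lowest mean of the members, 6.33 in the authors' deposited table. The implied levels were 4.28 in nESC and 8.38 in EpiLSC. At 0.97 (SE 1.71 and adjusted p 0.917 in the authors' deposited table) it did not pass, with a 95% interval from -2.38 to 4.32. Gm37587, a noncoding gene without a value there, shares 804 exonic bases with Sox17 on the opposite strand. Of the 5 members not called, 0 had an interval narrower than 4-fold in both directions, so they are not shown to be unchanged.

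**Figure D3:**
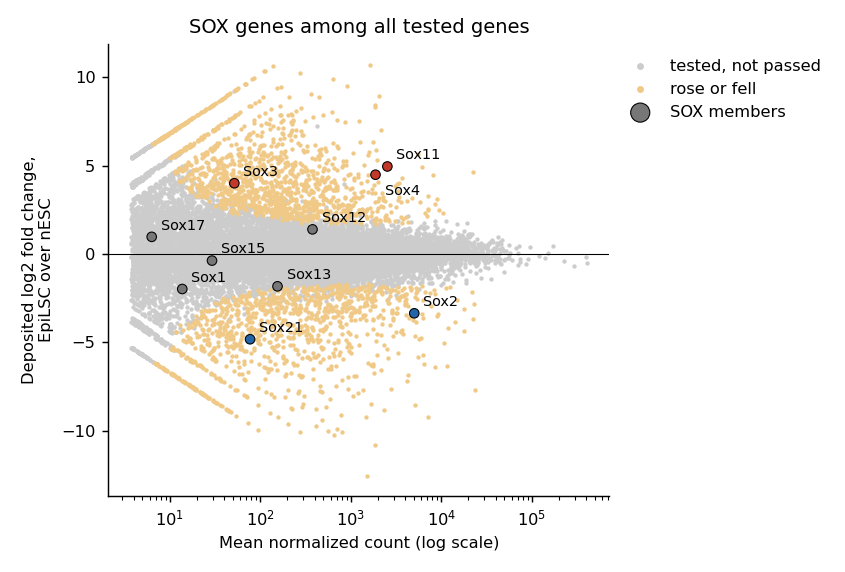
Mean normalized count (x axis, log scale) against the deposited log2 fold change of EpiLSC over nESC (y axis) for all 16361 tested genes, grey where not passed and pale orange where they rose or fell. The 10 members are drawn larger, red where they rose, blue where they fell and dark grey where they did not pass. Sox2, Sox4 and Sox11 combine a high mean with a large change, and Sox1, Sox15 and Sox17 lie at means below 30.

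Set side by side, the implied levels of the states differed in makeup. Summed over the 19 SOX genes of the table, they came to 4703 normalized counts per kb in nESC and 2015 per kb in EpiLSC. Without division by length the sums were 10187 and 10242 normalized counts, so the lower total in EpiLSC is seen only per kb. Sox2 held 94.8% of this sum in nESC and 21.7% in EpiLSC. With the fold change of Sox2 at either end of its 95% interval and all else as is, its share would be 94.2% to 95% in nESC and 10.8% to 37.1% in EpiLSC. Sox4 went from 0.715% to 37.2% and Sox11 from 0.408% to 29.4%. Group C as a whole held 2.12% in nESC and 72.7% in EpiLSC, and group B1 held 94.9% and 24.1%. In normalized counts, not divided by length, group C held 5.20% and 88.5%, and group B1 90.3% and 9.78%.

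The order of the members by level per kb was also different. In nESC Sox2 (4457) was far above Sox13 (56.2), Sox12 (46.9), Sox21 (39.3), Sox15 (38.5), Sox4 (33.6) and Sox11 (19.2), and Sox1 (4.55), Sox3 (2.95) and Sox17 (0.897) were lowest. In EpiLSC the order was Sox4 (750), Sox11 (592), Sox2 (437), Sox12 (123), Sox3 (47.2), Sox15 (29.7), Sox13 (15.8), Sox17 (1.76), Sox21 (1.39) and Sox1 (1.15). The table gives no error for a mean, so neighbours in these orders could not be tested. Without division by length, Sox2 held 90.0% of the summed counts in nESC and 8.77% in EpiLSC, and in EpiLSC Sox11 (48.1%) stood above Sox4 (35.1%), so the order of these 2 genes depends on the gene models used for length.

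**Figure D4:**
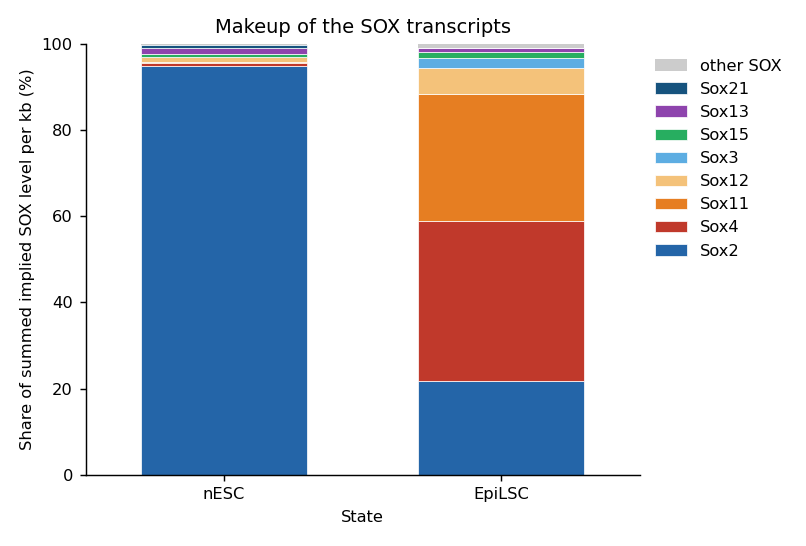
Share (y axis, percent) of each SOX gene in the summed implied SOX level per kb in nESC and in EpiLSC (x axis), as stacked bars from 0 to 100. Sox2 fills 94.8% of the nESC bar and 21.7% of the EpiLSC bar, where Sox4 (37.2%) and Sox11 (29.4%) are the largest parts.

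Of the 9 other SOX genes in the table, Sox5, Sox6 and Sox8 had an adjusted p and none of the 3 was called by the DESeq2 Wald test, with 1 at an unadjusted p under 0.05. That was Sox8, at 3.78 (SE 1.90 and adjusted p 0.217 in the authors' deposited table), with an implied level of only 1.06 in nESC. Sox7, Sox9, Sox10, Sox14, Sox18 and Sox30 had means from 1.41 to 2.62 in the authors' deposited table and no adjusted p. Sry was not analysed here. Of the noncoding genes named after SOX genes, Sox2ot, in which Sox2 lies on the same strand without shared exonic bases, had a mean of 108 and a value of -1.89 (SE 0.78 and adjusted p 0.0917 in the authors' deposited table). It did not pass, with an implied level of 169 in nESC and of 45.7 in EpiLSC. Sox1ot had a mean of 1.23 in the authors' deposited table and no adjusted p.

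The gene lists that follow were chosen with earlier results of these data known, and their shares were not tested. Each count stands beside the 7.67% of all 16361 tested genes that rose and the 6.23% that fell. Among 6 POU factors, the partners of SOX proteins on DNA, 2 rose and 0 fell. Pou3f1, a POU factor of the epiblast and of neural cells, rose by 8.04 (SE 0.88) and Pou2f2 by 3.34 (SE 1.12) in the authors' deposited table. Pou5f1 (-0.19, SE 0.76), Pou2f1 (-0.00, SE 0.64) and Pou3f3 (-2.29, SE 1.11) missed the threshold in the authors' deposited table, and Pou3f2 had no adjusted p. Implied levels of Pou5f1 were 8564 normalized counts in nESC and 7517 in EpiLSC, beside 9169 and 899 for Sox2. These are not divided by length, so they compare the states within a gene and not the genes with each other. Across the tested members of the list the median log2 fold change was -0.00.

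Of 12 further factors known to work with SOX2, 5 fell and 2 rose, and the median was -0.04. The falls were led by Esrrb (-8.54, SE 0.69), Tfcp2l1 (-7.71, SE 0.64), Klf4 (-6.29, SE 0.68) and Nr0b1 (-6.49, SE 0.73) of the naive network in the authors' deposited table. Nanog also fell, with a value of -2.25 (SE 0.75) in the authors' deposited table. Otx2 (3.90, SE 0.66) and Zic2 (2.46, SE 0.67), factors of the formative epiblast, rose in the authors' deposited table. Esrrb, Klf4 and Otx2 were among the genes used to set the direction, so their own direction was fixed by that choice. Apart from those, Tfcp2l1, Nr0b1 and Nanog fell and Zic2 rose.

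Genes with a known OCT-SOX element divided: of 7 apart from Sox2, 3 fell and 0 rose (median -0.19). Fbxo15, a classical reporter of embryonic stem cells, fell by 7.17 (SE 0.70), and Fgf4, which encodes an FGF ligand of the inner cell mass and epiblast, by 3.35 (SE 0.68) in the authors' deposited table. The third was Nanog, given above. Pou5f1, Zscan10 (-0.07, SE 1.00), Lefty1 (0.42, SE 0.66) and Utf1 (2.29, SE 2.68) missed the threshold in the authors' deposited table.

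Neural genes, named with Sox1, Sox3, Sox21 and group C, rose in part. Of 14 neural progenitor genes 12 were in the table and 8 tested, of which 4 rose and 0 fell (median 3.06). Nes, an intermediate filament gene, rose by 3.19 (SE 0.68) and Dach1 by 3.31 (SE 1.13) in the authors' deposited table. Zic1 and Fabp7, with implied levels of 24.6 and 22.9 in EpiLSC, also rose. No fold is given for them, since their implied nESC levels of 0.173 and 0.174 were far under 3, the level taken as few reads. The median of 3.06 includes both genes, so its size rests in part on few reads. Pax6, a defining marker, did not pass (2.93, SE 1.46 and adjusted p 0.214) in the authors' deposited table. Nor did Lhx2 (-1.18, SE 1.75), Msi1 (-0.07, SE 0.97) and Otx1 (-0.04, SE 2.04) in the authors' deposited table. Neurog1 and Neurog2 had implied levels under 3 in both states. Olig2 and Six3 were not analysed here. Summed implied levels of the 5 neural markers were 1377 in nESC and 9033 in EpiLSC, of which Nes made up 929 and 8486.

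Of 10 genes in the neuronal list 4 rose and 1 fell (median 1.57). Ina (3.68, SE 0.65), Elavl3 (5.24, SE 0.88), Gap43 (3.16, SE 0.81) and Map2 (1.91, SE 0.66) rose in the authors' deposited table. Stmn2 fell, with a value of -2.80 (SE 0.62) in the authors' deposited table. Tead2, a gene that group C factors can activate rather than a neuronal marker, is counted in this list and its median. Tubb3 (0.29, SE 1.11) and Tead2 (1.23, SE 0.79) missed the threshold in the authors' deposited table. So did Elavl4 (0.39, SE 0.87), Stmn1 (-0.45, SE 0.63) and Dcx, whose implied nESC level was only 0.174.

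The endoderm genes, named with Sox17, had 4 rises and 1 fall among 11 tested of 15 in the table (median 0.67). Col4a1 (4.28, SE 1.01), Foxa2 (6.60, SE 1.59), Dab2 (3.35, SE 0.87) and Eomes (3.18, SE 0.90) rose in the authors' deposited table, with an implied nESC level of only 1.48 for Foxa2. Lama1 fell, with a value of -5.58 (SE 0.69) in the authors' deposited table. Gata4 (0.67, SE 1.16) missed the threshold in the authors' deposited table, and Gata6, another defining factor, had no adjusted p. Foxa1, with an implied nESC level of only 0.507, also missed it. Pdgfra (-2.38, SE 1.03), Gsc (-1.23, SE 1.57), Hhex (-1.04, SE 0.80) and Cxcr4 (-0.71, SE 1.17) missed it with negative values in the authors' deposited table. Summed implied levels of the list were 6989 in nESC and 3176 in EpiLSC, of which Lama1 made up 6511 and 136. The 7 primitive endoderm markers, with Sox17 and Sox7 among them, summed to an implied level of 104 in nESC and of 311 in EpiLSC. Of these markers 2 rose and 0 fell, and Sox7 was under 3 in both states. The rises were Foxa2 (1.48 in nESC and 142.9 in EpiLSC) and Dab2 (11.8 and 120.8). Pdgfra (69.9 and 13.5), which did not pass, and Gata6 (3.47 and 2.16) had lower implied levels in EpiLSC. The part of these markers in the levels of Sox17 was not tested.

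Of 9 germ cell genes, a list set beside Sox15 and Sox17, 6 fell and 1 rose (median -3.73), beside 6.23% and 7.67% of all tested genes. Prdm14 (-10.24, SE 1.23), Tfap2c (-5.82, SE 0.77), Prdm1 (-4.37, SE 0.68) and Kit (-3.73, SE 0.70) had the smallest p among the falls in the authors' deposited table, and Ddx4 rose by 3.03 (SE 0.75). The implied EpiLSC level of Prdm14 was 1.08, so the size of its fall rests on few reads. Prdm14 and Dppa3, which also fell, were counted above among the naive markers. Markers of further cell types moved in both directions: 2 of 7 fibroblast markers rose and 0 fell (summed implied levels 88.7 in nESC and 270.3 in EpiLSC), with Lum under 3 in both states. Thy1 (5.83 in nESC and 141 in EpiLSC) and Dcn (0.485 and 52.6) were the rises. Pdgfrb (73.9 and 31.2), which did not pass, had a lower implied level in EpiLSC, and Col1a1, Col1a2 and Col3a1, none of them called, had higher ones. Of 7 trophectoderm markers 2 rose and 2 fell (1319 and 4024), with Elf5 and Gata3 under 3 in both states. The rises were Eomes (212 in nESC and 1917 in EpiLSC), counted above among the endoderm genes, and Krt18 (43.4 and 1269). Krt8 (306 and 821) did not pass. The falls were Tfap2c (671 and 11.9), counted above among the germ cell genes, and Cdx2 (84.5 in nESC and under 3 in EpiLSC). The higher sum in EpiLSC was therefore not shared by all of these markers. The part of the fibroblast and trophectoderm markers in the changes of Sox4 and Sox11 was not tested.

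**Figure D5:**
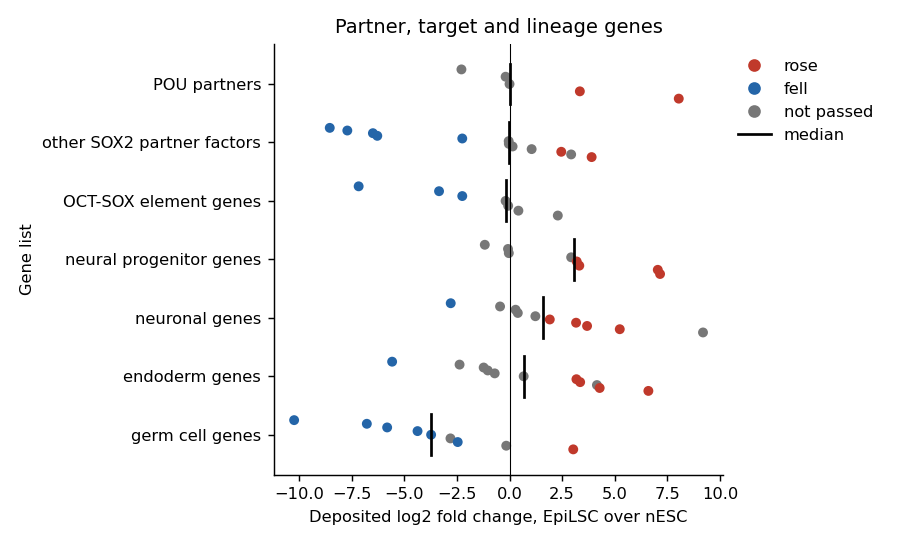
Deposited log2 fold change of EpiLSC over nESC (x axis) for the tested genes of 7 lists (y axis), each point 1 gene coloured by its call, with the list's median as a black line. The medians run from -3.73 for germ cell genes to 3.06 for neural progenitor genes. The latter includes Zic1 and Fabp7, whose implied nESC levels were far under 3.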

How the data were processed

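RNA-seq of 2 nESC and 2 EpiLSC samples was used through the 1 table the authors deposited. Ribosomal RNA was depleted and libraries were strand-specific, per the labels' protocols. TopHat2, HTSeq, DESeq2 1.8.2 and mm9 are named in the submitters' processing notes. Annotation and strand setting were not given in the sources used here.

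Per the file headers, the authors' values are a mean of counts divided by size factors (a signal), a log2 fold change with its standard error, a Wald score, and a p-value with its adjusted p. The deposited score equalled the fold change over its standard error (largest gap 5.9e-14), and adjusted p-values were those of Benjamini and Hochberg over 16361 genes (largest gap 2.3e-15). The other 3935, with means up to 3.74, were not tested. Standard errors had a median of 0.68 at means of 1000 or more and 1.3 below 100. No single-gene test was added. Of the IDs, 20167 of 20296 had a symbol in GENCODE M21, matched without version.

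With mean m and log2 fold change L, the implied nESC level was 2m/(1 + 2^L) and the EpiLSC level the rest of 2m. A level under 3 was taken as few reads. Intervals are 95% normal intervals of the fold change. Alternatives were no filter on low means, only means of at least 100, a 2-fold null, an adjusted p under 0.01 and re-centring. The adjustment and the 2-fold test were also run on simulated data. Their noise was drawn from the deposited standard errors, so this checked the calculation and not whether those errors are right. The members and lists were chosen with earlier results of these data known. Named were all SOX genes and, per list, up to 4 called genes each way by smallest p, with those not passing in lists of up to 8 genes. Nanog among the partner factors, Gm4675, Gm26735, Gm37587, Mpdu1 and the fibroblast markers were named after the results were seen. So were the non-passing genes of longer lists. Software was Python 3.11.15, pandas 2.3.3 and scipy 1.17.1.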

Additional observations from a re-analysis of the deposited data

How the results depend on the processing

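The alternatives act on the calls: all but re-centring keep the deposited fold changes as they are, so they say nothing about direction, and a stricter threshold or null cannot add a call. Of the 5 called members, Sox3 lost its call against a 2-fold null (adjusted p 0.114, range 0.00556 to 0.114), and no uncalled member gained one. With only means of at least 100, 5 members remained to be tested, so that 2 rose (Sox4, Sox11) and 1 fell (Sox2), as Sox3 and Sox21 have lower means. Tested against a 2-fold change, 2 members rose and 2 fell. Over all genes, 1255 rose and 1019 fell, against 628 and 502 with the 2-fold null and 636 and 615 at means of 100 or more. Counts in place of counts per kb, an alternative chosen after seeing the data, moved the share of Sox2 from 94.8% to 90.0% in nESC and from 21.7% to 8.77% in EpiLSC. No paired analysis was possible because the table has no values per sample, and leaving out each sample in turn was not run for the same reason. The 5 members not called had standard errors from 1.01 (Sox12) to 1.71 (Sox17) in the authors' deposited table.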
